A study of Homo sapiens with 12 samples.

Results

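The genes described here build the nuclear pore or carry cargo through it: 53 genes of the Ran cycle, the importins, the exportins and the nucleoporins, out of 16451 gene symbols with at least 1 read in a coding sequence (CDS). The rule that picked them lists symbols by function and uses no measured value, but the list was drawn up with earlier results of these data known. The data are mRNA-seq and Ribo-seq from IMR90, a widely used cell line of normal fibroblasts from human lung. The sample labels name no transgene and no drug. Proliferating cells (Pro) were compared with cells passaged to replicative senescence (Sen), a lasting arrest of division reached by continued culture. Each state had 3 independently grown lysates, and from every lysate both library types were made, 12 libraries in all. Per the protocol both states share the line, the medium and the cycloheximide in the harvest buffer, and they differ in passage. The RNA-seq data of proliferating cells also carry a tag like the solvent name DMSO, which the labels do not explain. Any effect behind that tag cannot be told apart from that of the state. The growth protocol names 2 isolates of the line without assigning them to samples.

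Traffic between nucleus and cytoplasm runs on a gradient of the small GTPase Ran. RCC1, bound to chromatin, loads Ran with GTP in the nucleus. RANGAP1, helped by RANBP1 and by RANBP2 on the cytoplasmic face of the pore, triggers GTP hydrolysis outside, and NUTF2 carries Ran-GDP back in. Importins bind cargo in the cytoplasm and release it on meeting Ran-GTP, whereas exportins need Ran-GTP to hold theirs. The pore itself is a ring of nucleoporins, with scaffold subunits (the Y complex and the inner ring), channel subunits that carry phenylalanine-glycine repeats, cytoplasmic filaments, a nuclear basket and membrane anchors. Scaffold nucleoporins are among the longest-lived proteins of non-dividing cells.

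RNA-seq libraries held 7902427 to 14144455 reads in mRNA regions, and Ribo-seq libraries held 54421 to 1718521 CDS reads. The Ribo-seq libraries Pro 1 and Sen 2 were the shallow pair, with 54421 and 54708 CDS reads. There, 3 reads corresponded to 50.5 and 51.2 CPM (edgeR's reads per library size, corrected by TMM), against 1.74 to 5.66 CPM in the other 4. Of the 53 genes, 40 had fewer than 10 footprint reads in Pro 1 and 44 in Sen 2. The 8 fibroblast markers examined, among them COL1A1 and VIM, together reached 26700 to 31734 CPM in every RNA-seq library. The 8 markers of epithelium, endothelium and leukocytes together reached 20.2 to 23.2 CPM in Pro and 33.2 to 36.4 CPM in Sen, with 6 of the 8 under 1 CPM in every library. CD68, a lysosomal protein that macrophages and also fibroblasts make, accounted for most of that sum. The 7 proliferation genes examined all fell in mRNA and the 3 cell cycle inhibitors CDKN1A, CDKN2A and CDKN2B all rose.

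To ask whether the transport machinery as a whole changed with senescence, mRNA levels were compared first. mRNA of 42 members fell in senescent cells, 2 rose and 8 did not pass the test (edgeR quasi-likelihood test, Benjamini-Hochberg adjusted p under 0.15, 52 members tested). Among all 12787 genes tested, 37% fell and 36.6% rose under the same rule, 73.6% in all. The median log2 fold change of the members, senescent against proliferating, was -0.51, whereas the median over all tested genes was -0.01. In the same 42 members, all 3 senescent libraries lay below all 3 proliferating ones, an arrangement seen in 34.2% of all genes tested. The counts of fallen mRNAs were 42 or 43 under every alternative setting and whichever lysate was left out. The risen mRNAs numbered 5 without Sen 2, 6 without Pro 1 and Sen 2, and 0 on library totals. NUP210, a membrane nucleoporin, was near 0 in all libraries, at 0.21 ± 0.141 CPM in Pro and 0.0244 ± 0.0423 CPM in Sen (SD, n = 3), and was the only member not tested. In bulk lysates, a smaller share of cycling cells and less mRNA per cell cannot be told apart, and proliferation genes fell in these same libraries with log2 changes of -1.51 to -2.84. Their part in the result was not tested.

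**Figure D1:**
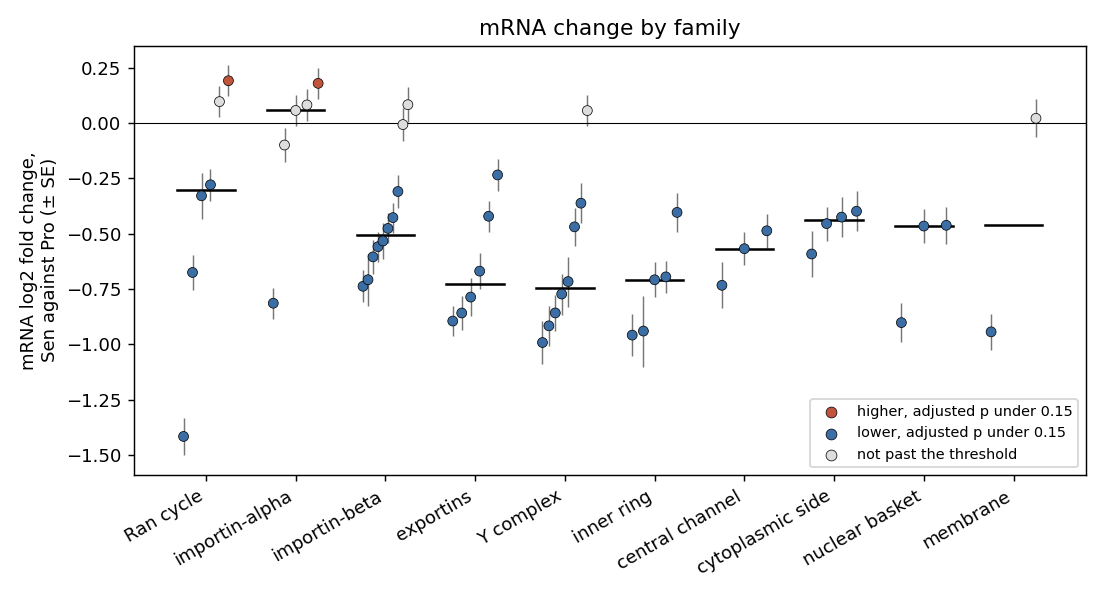
mRNA log2 fold change of each tested member (points, senescent against proliferating, bars ± SE), grouped by family, with a black line at each family median. Family medians run from 0.06 for importin-alpha to -0.75 for the Y complex. All exportins and all inner ring, central channel, cytoplasmic side and nuclear basket subunits lie below 0.

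Footprints followed a similar order. Ribosome-protected fragments (RPF, the CDS reads of Ribo-seq) of 40 members fell, those of 5 rose and those of 7 did not pass the same test. Across 7521 genes tested, 26.9% fell and 27.5% rose, 54.4% in all. The median RPF change was -0.65 over the members and 0.00 over all genes. Of the 52 members tested in both layers, 38 fell in both, none rose in both and 3 passed in neither. For 15 members all senescent Ribo-seq libraries lay below all proliferating ones (15.7% of all genes) and for 4 they lay above (16.8% of all genes). In the 2 shallow libraries, 4 members (Pro 1) and 7 members (Sen 2) had no footprint read. Without those 2 lysates 40 members fell and 5 rose in RPF. The counts dropped to 24 fallen and 3 risen without Sen 1, and to 12 fallen and 2 risen with DESeq2 in place of edgeR.

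**Figure D2:**
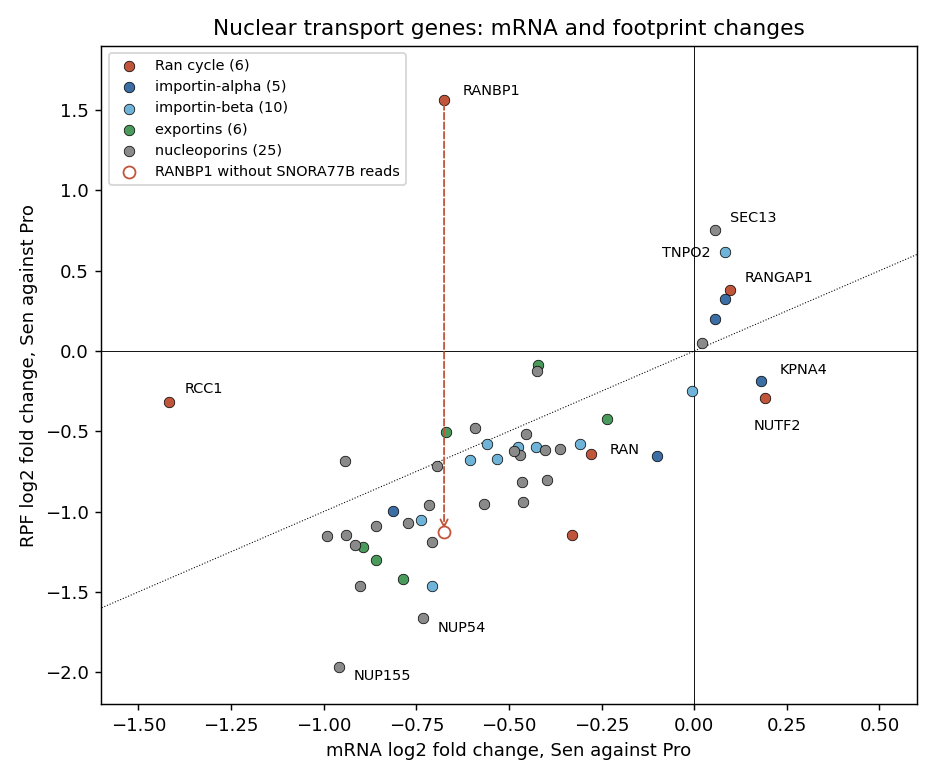
RPF against mRNA log2 fold change for the 52 tested members, coloured by family, with a dotted line where both changes are equal. Most points lie low on the left, and RANBP1 as counted stands alone at the upper left. The dashed arrow leads to its position with the reads of the snoRNA SNORA77B taken out.

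Ran itself was the most abundant transcript of the set per length, at 176 CPM per kb of transcript in proliferating cells, followed by SEC13 at 163, KPNA2 at 120 and RANBP1 at 112. Lengths were those of GENCODE models. Which models the counting used is not known, and the order was not examined with other lengths. RAN mRNA was 423, 444 and 439 CPM in Pro 1 to 3 and 350, 391 and 335 CPM in Sen 1 to 3, so the groups did not overlap. It fell by 0.28 ± 0.07 on the log2 scale (SE, adjusted p = 0.0021). RAN footprints were 775, 755 and 838 CPM against 579, 461 and 443 CPM, again without overlap, and fell by 0.64 ± 0.16 (adjusted p = 0.001).

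RCC1, the exchange factor that makes Ran-GTP, had the largest mRNA decrease of all members. Its mRNA was 67.8, 66.5 and 61.4 CPM in Pro and 24.5, 25.8 and 22.8 CPM in Sen, a drop of 1.42 ± 0.08 on the log2 scale (adjusted p = 2.9e-12). Its footprints rested on few reads, namely 5, 29 and 52 in Pro and 43, 0 and 18 in Sen. As CPM these were 84.2, 41.8 and 30.1 against 28, 0 and 34, and the groups overlapped. The RPF change of -0.32 ± 0.31 did not pass the test (adjusted p = 0.42). RCC1 shares 242 exonic bases on its own strand with the long non-coding gene SNHG3, whose small nucleolar RNAs SNORA73A and SNORA73B the tables count within the RCC1 span at 3298 and 2128 Ribo-seq reads. Those reads far exceed the RCC1 CDS counts, which cannot hold them all. In Ribo-seq Sen 2, RCC1 had 0 CDS reads beside 34 reads of SNORA73A and 39.5 of SNORA73B. SNORA73A reads were not whole in 8 of 12 libraries and SNORA73B reads in 7, whereas RCC1 CDS reads were whole in all. RCC1 CDS reads minus SNORA73A reads were whole and not negative in 3 libraries, and the same number held for SNORA73B.

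RANGAP1, the GTPase-activating protein, did not pass the test in mRNA (0.10 ± 0.07, adjusted p = 0.24). Its levels were 246, 251 and 263 CPM in Pro against 272, 253 and 288 CPM in Sen. Its footprints rose, from 253, 219 and 211 CPM to 266, 273 and 308 CPM, by 0.38 ± 0.16 (adjusted p = 0.051). That call was lost when Pro 2 (0.37), Pro 3 (0.34) or Sen 3 (0.31) was left out.

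RANBP2, the large filament protein that anchors RANGAP1 at the pore, fell in mRNA by 0.33 ± 0.10 (adjusted p = 0.0085) and in RPF by 1.15 ± 0.23 (adjusted p = 2.3e-05). Its mRNA was 41.2, 46.9 and 54.8 CPM in Pro and 32.1, 40.4 and 41.2 CPM in Sen. The highest senescent library thus lay just below the lowest proliferating one. RANBP2 footprints were 50.5, 92.2 and 89.7 CPM against 40.3, 68.2 and 35.8 CPM, with Pro 1 and Sen 2 resting on 3 and 4 reads.

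NUTF2, the Ran importer, was 1 of the 2 members whose mRNA rose, from 156, 162 and 161 CPM to 191, 183 and 174 CPM (0.19 ± 0.07, adjusted p = 0.019). Its footprints went the other way, from 168, 213 and 236 CPM to 173, 154 and 200 CPM, by -0.29 ± 0.17 (adjusted p = 0.147). NUTF2 and RANBP1 were the only members past the threshold in both layers with opposite signs. Neither NUTF2 call was firm. The mRNA change was 0.09 on library totals and 0.08 on CDS reads alone, where it did not pass, and the RPF call was lost when any lysate but Pro 1 was left out, with values from -0.16 (without Pro 3) to -0.37 (without Sen 3).

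**Figure D3:**
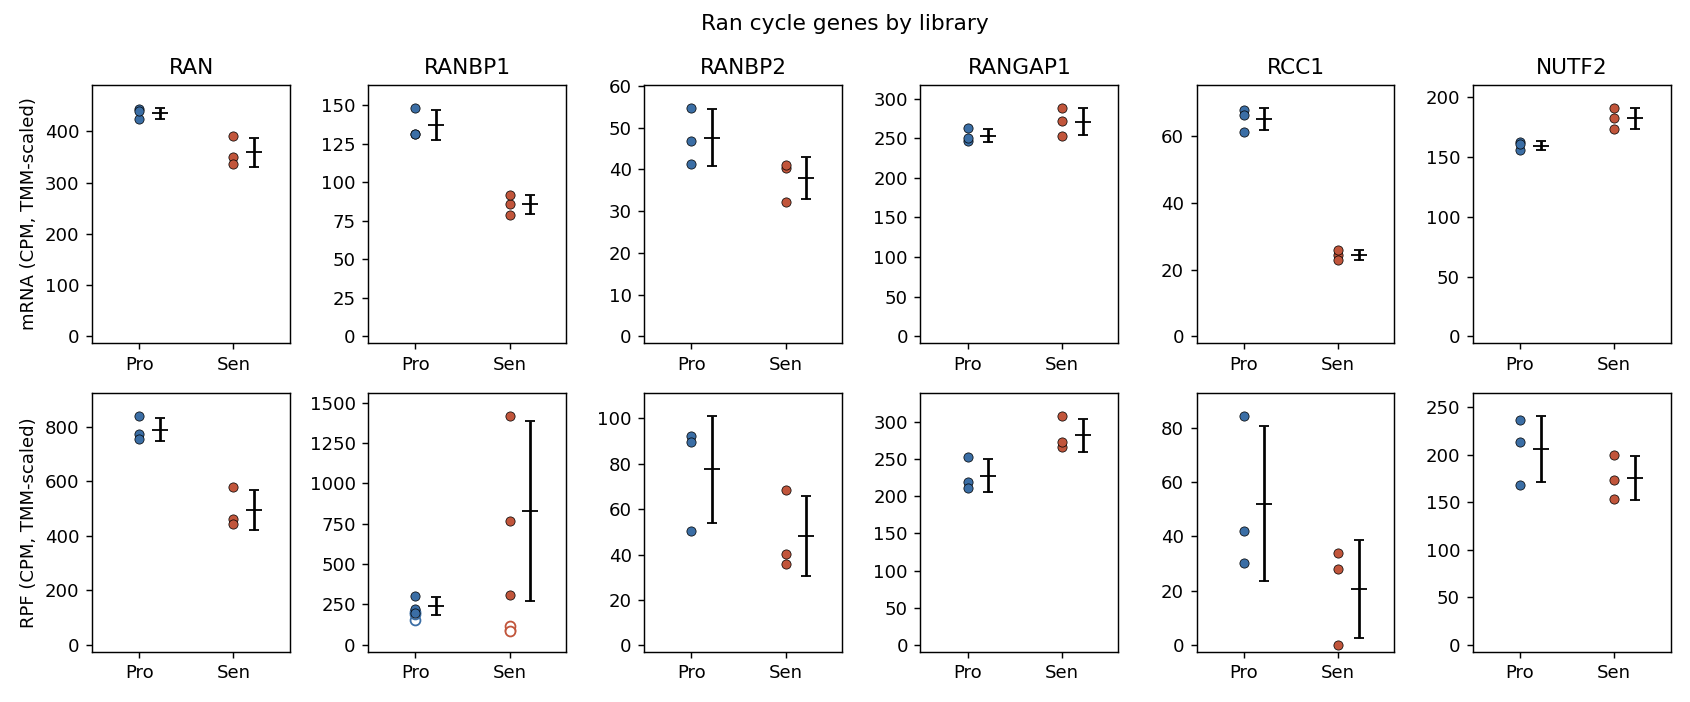
CPM of the 6 Ran cycle genes in each library (points), for mRNA (top) and RPF (bottom), with mean ± SD beside each group of 3. RCC1 mRNA separates most clearly, and for RANBP1 the open circles give the footprint level with SNORA77B reads taken out.

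RANBP1 was the member whose 2 layers differed most. RANBP1 (GRCh37 chr22:20103461-20114878, plus strand) encodes a cytoplasmic protein that binds Ran-GTP and speeds the action of RANGAP1. Its mRNA was 148, 131 and 131 CPM in Pro and 86.1, 91.6 and 78.9 CPM in Sen, and fell by 0.68 ± 0.08 on the log2 scale (adjusted p = 1.1e-07). Of the other 51 members, 19 had a lower mRNA fold change. Its footprints as counted were 303, 220 and 200 CPM in Pro and 309, 1416 and 766 CPM in Sen, which is a rise of 1.57 ± 0.23 (adjusted p = 2.3e-08). The groups did not overlap, although Pro 1 and Sen 1 lay close together and Sen 2 rested on 83.2 reads.

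Translational efficiency (TE), the change in RPF relative to mRNA, was tested as an interaction in a joint fit of all 12 libraries. As counted, RANBP1 TE rose by 2.14 ± 0.22 (adjusted p = 6e-12), the fifth highest of 7473 genes tested. The other members ranged from -1.05 to 1.08 with a median of -0.22. Per lysate, the log2 ratio of RPF to mRNA for RANBP1 minus the median of the other 51 members was 0.74, 0.10 and 0.02 in Pro and 1.49, 3.70 and 2.74 in Sen. In Pro 2 and Pro 3 RANBP1 thus sat near the median of the set, and in all senescent lysates it stood far above it.

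The RANBP1 counts also appeared to hold reads that the tables assign to a second gene. SNORA77B is a small nucleolar RNA of 125 bases that lies inside RANBP1 on the same strand, at GRCh37 chr22:20113925-20114049 (SNORA77 in GENCODE). Of the 8 RANBP1 transcripts in GENCODE that span the snoRNA, 5 skip it as an intron, the MANE Select transcript included. In 3 transcripts it falls in an exon, and in 1 of these, a coding model with an incomplete end, all 125 bases are annotated as CDS. Under that model a read from the snoRNA is also a RANBP1 CDS read, but which models the counting used is not known. The first 30 bases of the snoRNA are shown, 5′ to 3′, because its reads equal most of the senescent RANBP1 footprints in number.
SNORA77: gcagactcactctgcatctgactatacttc

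RANBP1 CDS reads in Ribo-seq were 18.2, 153 and 345 in Pro 1 to 3 and 476, 83.2 and 406 in Sen 1 to 3. SNORA77B reads in the same libraries were 9.17, 9.67 and 9.67 against 338, 76.2 and 362. Some of these values are fractions of a read. In all 12 libraries the difference between RANBP1 CDS reads and SNORA77B reads was a whole number (tolerance 0.0001 reads), also in the 7 where SNORA77B itself was not whole. Where both numbers were whole, as in Ribo-seq Sen 1 with 338 and 476 reads, the difference cannot show sharing. Nor can a whole difference show that every SNORA77B read was shared. As a share of RANBP1 CDS reads, SNORA77B reads were 50% in Pro 1, with a Wilson 95% interval of 29% to 71%. The share was 6.54% (3.59% to 11.6%) for Pro 2 and 2.9% (1.58% to 5.25%) for Pro 3. In senescent lysates the share was 71% (66.8% to 74.9%), 91.6% (83.6% to 95.9%) and 89.2% (85.8% to 91.8%). These intervals treat each read as independent and cover no error beyond counting. In RNA-seq the snoRNA had 0 to 1.5 reads per library beside 614 to 1174 RANBP1 CDS reads.

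All SNORA77B reads were then taken out, on the assumption that every one had been counted for RANBP1. This left 9, 143 and 335 RANBP1 CDS reads in Pro and 138, 7 and 45 in Sen. On the CPM scale this was 152, 206 and 194 against 89.7, 119 and 84.9, so every senescent lysate lay below every proliferating one. The RPF change became -1.13 ± 0.18 (adjusted p = 2.1e-07), opposite in sign to the change as counted. The TE change became -0.47 ± 0.19 and no longer passed the threshold (adjusted p = 0.16). It lay between the lowest and the median TE change of the other members, with 9 of the 51 below it. Its ratio of RPF to mRNA minus the median of the others was then -0.22, 0.00 and -0.02 in Pro and -0.30, 0.22 and -0.41 in Sen, with overlapping groups. The removal was chosen after seeing the data. As counted, RANBP1 passed in RPF and TE under every other alternative setting, with TE values from 1.87 to 2.83. With SNORA77B reads taken out it passed as a decrease in RPF under all 13 alternatives that gave a value. In TE it passed under 5 of 16, with values from -0.37 to -0.56. Without the Pro 1 lysate the TE change was -0.56 and passed the threshold.

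**Figure D4:**
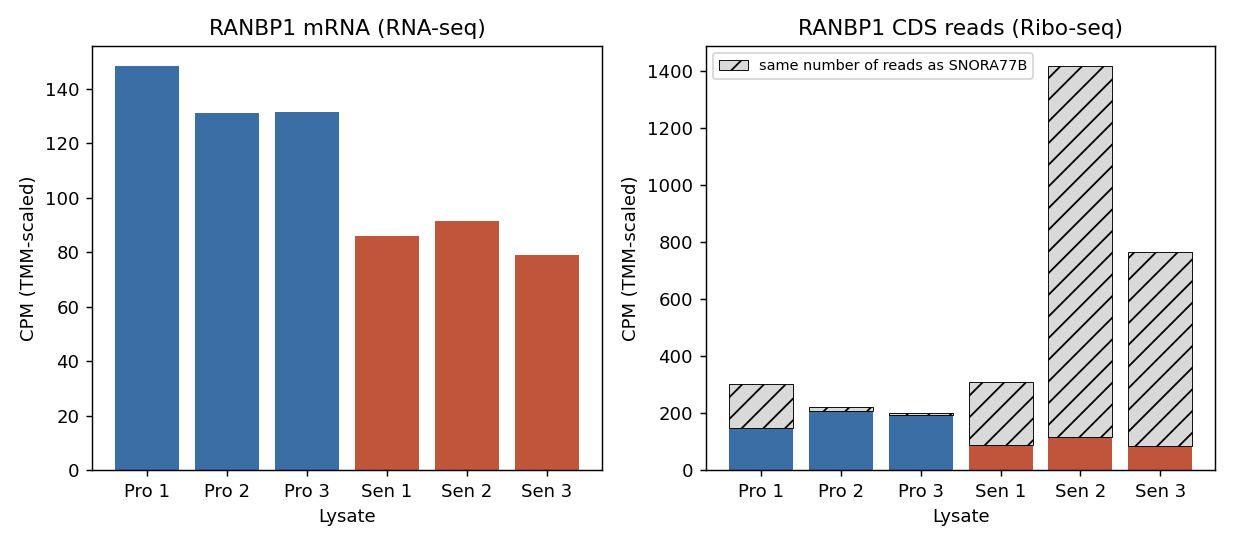
RANBP1 level per lysate in CPM, as mRNA (left) and as Ribo-seq CDS reads (right), where the hatched part equals the number of SNORA77B reads. The hatched part fills most of the bar in the 3 senescent lysates and in Pro 1 about as much as the solid part.

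For the small RNAs nested in IPO7, KPNA4 and TNPO2 the same comparison could not show whether reads were shared, since their own read numbers were whole in every library. SNORA23 in IPO7 had 735 Ribo-seq reads, SCARNA7 in KPNA4 had 44, and SNORD135 and SNORD41 in TNPO2 had 3 and 1. In Pro 1, SNORA23 had 105 reads beside 12 CDS reads of IPO7, which cannot hold them all. In the other Ribo-seq libraries of IPO7, and in all those of KPNA4 and TNPO2, the host count was larger than that of the small RNA, and the part of such reads in it was not tested. With RANBP1 counted without SNORA77B, 41 members fell and 4 rose in RPF.

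The importin-alpha adaptors, which bind classical import signals, were the least affected family. Of 5 members, 1 fell and 1 rose in mRNA, and the median change was 0.06. KPNA2, the adaptor most abundant in dividing cells, fell from 235, 238 and 240 CPM to 127, 142 and 136 CPM (-0.81 ± 0.07, adjusted p = 1.2e-09). Its footprints fell in step, from 438, 465 and 506 CPM to 234, 239 and 253 CPM (-0.99 ± 0.16, adjusted p = 4.2e-07).

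KPNA4 mRNA rose from 113, 109 and 122 CPM to 128, 132 and 129 CPM (0.18 ± 0.07, adjusted p = 0.03), a call lost without Pro 2 (0.14) and on library totals (0.07). KPNA1, KPNA3 and KPNA6 did not pass in mRNA, with changes of 0.06, -0.10 and 0.08. In RPF, KPNA3 fell by 0.65 ± 0.18 and KPNA6 passed as higher at 0.32 ± 0.17 (adjusted p = 0.0028 and 0.12). The KPNA6 call was lost when Pro 1 (0.24), Pro 2 (0.29), Pro 3 (0.45) or Sen 1 (0.19) was left out. Thus KPNA2 was the only adaptor that fell in mRNA, and no adaptor passed in TE.

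Of the 10 importin-beta receptors, which carry cargo through the channel, 8 fell in mRNA and 8 in RPF. The lowest mRNA changes were those of IPO9, IPO11 and TNPO3. IPO9, an importer of histones and actin, fell from 94.9, 96 and 95.9 CPM to 55.5, 56.9 and 59.5 CPM (-0.74 ± 0.07) and in RPF by 1.05 ± 0.21. IPO11 fell by 0.71 ± 0.12 in mRNA and by 1.46 ± 0.32 in RPF, from a low level of 19 ± 2.17 CPM in Pro. Its footprints in Pro 1 were at 0, and its exons overlap 1193 bases of LRRC70 on the same strand.

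TNPO3, which imports splicing factors rich in serine and arginine, fell by 0.61 ± 0.08 in mRNA and by 0.68 ± 0.24 in RPF (adjusted p = 3.7e-07 and 0.016). Its footprints were 0, 79.2 and 81 CPM in Pro and 41.6, 68.2 and 60.4 CPM in Sen, so the groups overlapped, the means were 53.4 and 56.7 CPM, and Pro 1 held no read. The RPF call was lost without Pro 3 (-0.53) or Sen 1 (-0.31). The 2 transportins for RNA-binding proteins did not pass in mRNA. TNPO1 was 229 ± 18.9 CPM in Pro and 228 ± 9.78 CPM in Sen, and TNPO2 88.4 ± 4.29 and 93.8 ± 8.16 CPM (SD, n = 3), with changes of -0.01 ± 0.07 and 0.08 ± 0.08. TNPO2 footprints rose, from 84.2, 60.5 and 61.9 CPM to 101, 85.3 and 86.8 CPM (0.62 ± 0.20, adjusted p = 0.0097), unless Sen 1 was left out (0.50). KPNB1, the main partner of the adaptors, had the highest mRNA of the family in CPM per kb and fell from 77.9 to 52.9.

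All 6 exportins fell in mRNA, and 5 of them fell in RPF. XPOT, the tRNA exporter, fell from 251, 247 and 253 CPM to 128, 142 and 134 CPM (-0.89 ± 0.07, adjusted p = 2.2e-10). CSE1L, which returns importin-alpha to the cytoplasm, fell from 129, 129 and 139 CPM to 69.4, 80.5 and 68.8 CPM (-0.86 ± 0.08). XPO1, the exporter of proteins with leucine-rich signals, fell from 149, 165 and 195 CPM to 94.5, 106 and 95.4 CPM (-0.79 ± 0.09). All senescent libraries lay below the proliferating ones for these 3 genes.

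Their footprints fell too, by 1.30 ± 0.18 for CSE1L and by 1.42 ± 0.18 for XPO1, again without overlap of the groups. XPOT footprints fell from 152, 196 and 178 CPM to 83.2, 85.3 and 67.9 CPM (adjusted p = 5.7e-08). XPO1 footprints were 202, 353 and 318 CPM in Pro and 106, 102 and 149 CPM in Sen. The smallest mRNA decreases were those of XPO6, the exporter of actin and profilin, at -0.42 ± 0.07, and XPO7 at -0.23 ± 0.07. XPO6 footprints were 50.5, 73.4 and 76.4 CPM against 67.6, 136 and 66 CPM and did not pass the test (-0.09 ± 0.21, adjusted p = 0.76). The XPO7 RPF decrease (-0.42 ± 0.23, adjusted p = 0.14) was lost without Pro 2 (-0.35), Sen 2 (-0.37) or Sen 3 (-0.25).

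Of the 13 scaffold nucleoporins, 12 fell in mRNA and the same number in RPF, with medians of -0.72 and -1.07. NUP107, NUP155 and NUP35 had the lowest mRNA changes. NUP107, a Y complex subunit, fell from 35, 37.3 and 40 CPM to 18.3, 21.1 and 16.9 CPM (-0.99 ± 0.10). NUP35, which links the inner ring to the membrane, fell from 17.3, 11.7 and 11.1 CPM to 5.85, 7.4 and 7.03 CPM (-0.94 ± 0.16). Its footprints overlapped between the states, at 0, 36 and 24.3 CPM in Pro and 12.4, 34.1 and 9.43 CPM in Sen. The fitted RPF decrease of 1.14 ± 0.38 was lost without Sen 1 (-1.15, adjusted p = 0.18).

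NUP155, an inner ring subunit, fell in mRNA from 31.8, 33.6 and 33.9 CPM to 18.1, 16.1 and 17.2 CPM (-0.96 ± 0.09) and had the lowest RPF change of all members. Its footprints were 50.5, 102 and 83.9 CPM in Pro and 21.5, 0 and 28.3 CPM in Sen, or 3, 71 and 145 reads against 33, 0 and 15. That is a decrease of 1.97 ± 0.26 (adjusted p = 2.2e-09).

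SEC13 was the scaffold member that did not fall. It is shared between the Y complex and the COPII coat of vesicles leaving the endoplasmic reticulum. Its mRNA was 222, 232 and 209 CPM in Pro and 230, 236 and 224 CPM in Sen, with a change of 0.06 ± 0.07 (adjusted p = 0.49). Its footprints were 236, 302 and 297 CPM in Pro and 462, 495 and 538 CPM in Sen. The groups were far apart, and the RPF rise was 0.75 ± 0.16 (adjusted p = 7.5e-05). NUP43 had the smallest decrease among the other scaffold members, at -0.36 ± 0.09 in mRNA. Its footprints also overlapped, at 16.8, 50.4 and 57.8 CPM in Pro and 32.5, 51.2 and 39.6 CPM in Sen. The fitted RPF decrease (-0.61 ± 0.26) was lost without Pro 3 (-0.40) or Sen 1 (-0.37).

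Outside the scaffold, 11 of 12 tested nucleoporins fell in mRNA and 10 in RPF. NDC1, a membrane anchor, fell from 58.5, 56.8 and 63 CPM to 30.9, 30.4 and 31.4 CPM (-0.94 ± 0.08), and its RPF decrease of 0.69 ± 0.26 was lost without Pro 3 (-0.49) or Sen 1 (-0.51). TPR, the coiled-coil protein of the nuclear basket, fell from 89.8, 100 and 111 CPM to 56.5, 48.2 and 57.4 CPM (-0.90 ± 0.09). Its footprints fell by 1.47 ± 0.18, from 152, 210 and 229 CPM to 80, 34.1 and 81.1 CPM.

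NUP54, a channel subunit, fell from 34.3, 32.5 and 31.8 CPM to 18.1, 23.1 and 17.5 CPM (-0.73 ± 0.10) and in RPF by 1.66 ± 0.29. Its Sen 2 library held no footprint and Pro 1 held 1. RAE1, an mRNA export factor on the cytoplasmic side, fell by 0.40 ± 0.09 in mRNA and by 0.80 ± 0.26 in RPF. POM121, a membrane anchor, did not pass in either layer, with 94.2 ± 5.5 CPM in Pro and 95.8 ± 12.2 CPM in Sen for mRNA (SD, n = 3) and changes of 0.02 ± 0.09 and 0.05 ± 0.30.

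In TE, 3 members passed as higher (RANBP1, RCC1 and SEC13) and 5 as lower (NUTF2, XPO1, NUP155, NUP54 and TPR). Over all 7473 genes tested, 4.88% were higher and 4.48% lower, 9.37% together. The median TE change was -0.21 over the members and -0.01 over all genes, and 39 of 52 members had a negative value. With RANBP1 counted without SNORA77B, 2 were higher and 5 lower. SEC13 rose by 0.70 ± 0.16 (adjusted p = 0.0055) and RCC1 by 1.08 ± 0.32 (adjusted p = 0.048), the latter beside an RPF change that did not pass. NUP155 fell by 1.05 ± 0.30 (adjusted p = 0.037) and NUP54 by 0.84 ± 0.32 (adjusted p = 0.13). TPR, XPO1 and NUTF2 fell by 0.56 ± 0.20, 0.51 ± 0.19 and 0.48 ± 0.18 (adjusted p = 0.094, 0.12 and 0.12). KPNA3 was just outside, at -0.50 ± 0.20 (adjusted p = 0.1503).

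These TE calls, other than RANBP1 as counted, depended on single lysates. RCC1 did not pass without Pro 3 (0.80), Sen 1 (1.21) or Sen 3 (0.95), SEC13 not without Pro 2 (0.68) or Sen 3 (0.62), and NUP155 not without Pro 2 (-0.92) or Sen 1 (-0.83). TPR did not pass without Pro 2 (-0.55), Pro 3 (-0.54), Sen 1 (-0.59) or Sen 3 (-0.55). XPO1 did not pass without Pro 2 (-0.33), Pro 3 (-0.62), Sen 1 (-0.28), Sen 2 (-0.47) or Sen 3 (-0.68). Of the single lysates left out, NUTF2 and NUP54 passed only without Pro 1, and otherwise had values of -0.30 to -0.59 and -0.73 to -0.89. With DESeq2 and with limma-voom, RANBP1 as counted was the only member past the threshold. Every one of the 7 kept its sign under all settings run.

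**Figure D5:**
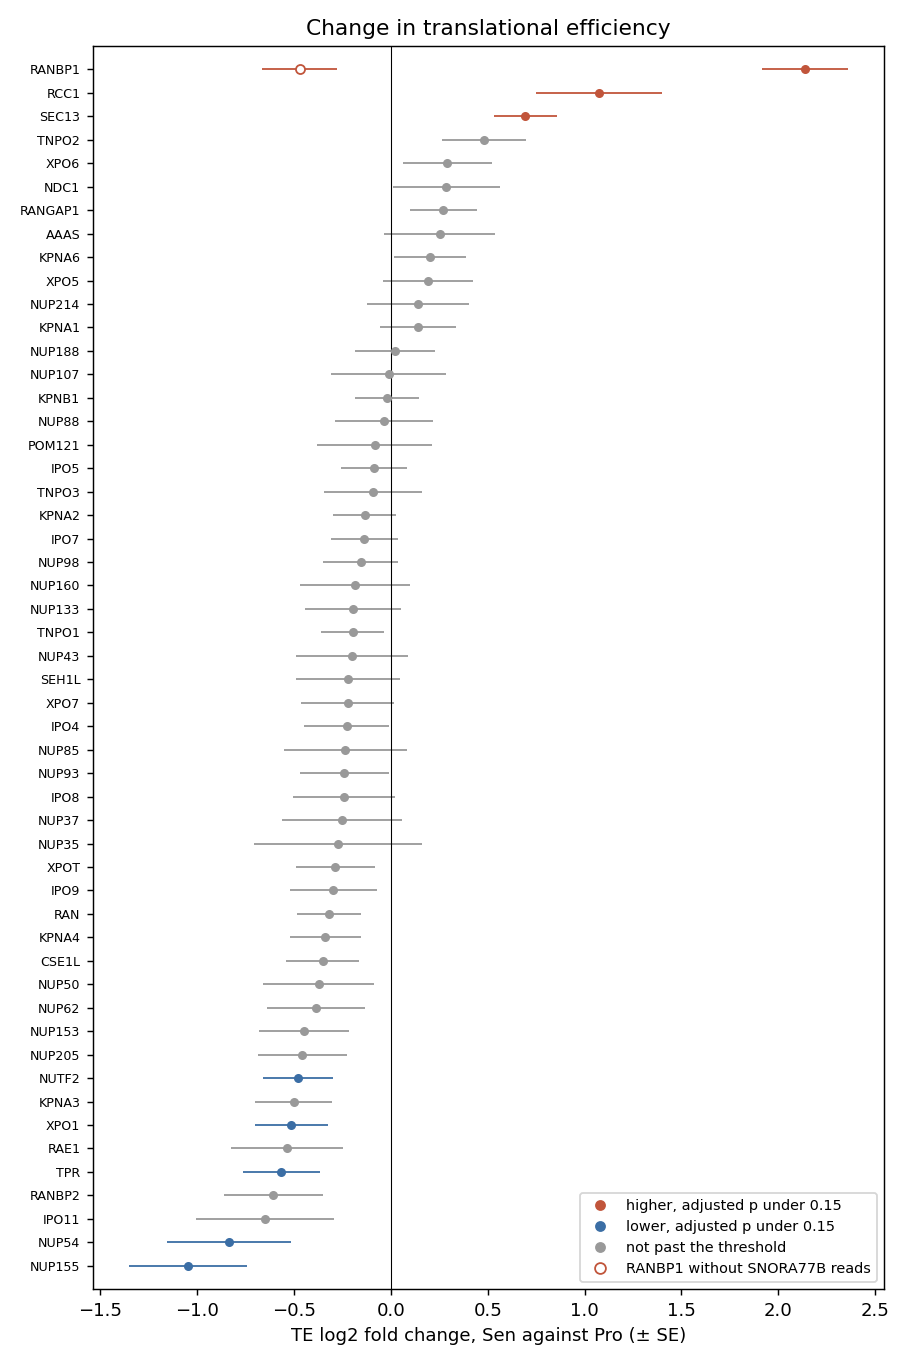
TE log2 fold change of the 52 tested members in order (points, bars ± SE), red and blue where the adjusted p was under 0.15. RANBP1 as counted stands at 2.14 and, as an open circle, at -0.47 without the SNORA77B reads, RCC1 and SEC13 follow it, and NUP155 is lowest at -1.05.

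For the members that passed in TE, RANBP1 only as counted, the bases around the annotated start codon are given from GENCODE models on GRCh37. An initiating ribosome settles at a start codon, but whether these annotated starts were the ones used in these cells was not examined. The start codon is in capitals, with the 12 bases before and the 6 after it.
RANBP1: ctcctcctggccATGgggtcg
RCC1: gaggacaggaagATGtcaccc
SEC13: accgccgcaatcATGgtgtca
NUTF2: tgacgctccagaATGggagac
XPO1: ctctggtaatctATGccagca
NUP155: acgatttccgagATGccgtct
NUP54: tgctttcgcgacATGgccttc
TPR: ggccccaccgacATGgcggcg

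A purine 3 bases before the start codon, the most conserved feature of efficient initiation sites, was found in 49 of 53 members, or 92.5%, and in 86.5% of 15410 genes with a model. A G right after the start codon was found in 39 members, or 73.6%, and in 52.9% of those genes. RCC1 has 4 further ATG triplets in its 5′ UTR and XPO1 has 2, and the other 6 genes above have none. These are descriptions of sequence, and no test was made of them against the TE changes.

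Promoters of the members were searched because so many of the genes fell together. RefSeq windows from 250 bases before to 50 bases after the start (GRCh38.p14) matched 48 of 53 members and 12529 genes in all, and both strands were read. TTTGAA, a core of the cell-cycle homology region, was found in 11 member windows, or 22.9%, and in 10.6% of all windows. CCAAT, the NF-Y box, was found in 19, or 39.6%, and in 36.1%. The E2F forms TTTGGCGC, TTTCGCGC, TTTCCCGC and TTTGCCGC together were found in 3, or 6.25%, and in 4.76%. The NRF1 palindrome was found in 3, or 6.25%, and in 2.01%. In KPNA2 a TTTGAA match on the minus strand begins at -99 from the start, and CCAAT boxes begin at -89 and -58.

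The windows that hold TTTGAA in RAN and in 3 of the genes with strong decreases are shown, with the match in capitals. Other genes with strong mRNA decreases, among them NUP107 (-0.99), NUP155 (-0.96) and TPR (-0.90), had a window without TTTGAA. These too are descriptions of sequence, and no test was made of them against the mRNA changes. That of RAN is chr12:130872054-130872077, that of KPNA2 chr17:68035758-68035781, that of CSE1L chr20:49046323-49046346 (all plus strand) and that of NDC1 chr1:53838313-53838336 (minus strand).
RAN: tctccggcgTTTGAAttgcgcttc
KPNA2: ggtggacccTTTGAAcgcagtcgc
CSE1L: ttgccggggTTTGAAtgtgaggcg
NDC1: cttcctgccTTTGAActgcggtgg

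In RNA-seq, 5′ UTR reads made up 17.5% to 27.2% of the mRNA-region reads of RANBP1, and 3′ UTR reads at most 1.52%. With CDS reads alone the members' mRNA counts were 42 fallen and 1 risen. Exons of RANBP1 overlap 393 bases of TRMT2A on the other strand, and because the strand rule of the counting is not known, reads from that overlap cannot be assigned. TRMT2A mRNA was 20.1 to 26.5 CPM in all libraries and did not change by the test (0.01 ± 0.11, adjusted p = 0.94). The neighbours DGCR8 and ZDHHC8 changed in mRNA by -0.48 ± 0.09 and 0.43 ± 0.08. IPO5P1 was the only named pseudogene of a member with reads, from 40.5 to 76.7 per RNA-seq library.

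Other genes of the transport and mRNA export pathways, from a separate list, changed less uniformly. Of 37 tested in mRNA, 20 fell, 5 rose and 12 did not pass, with a median of -0.19. Over all genes tested, 37% fell and 36.6% rose. In RPF 10 of 30 fell and 1 rose, against 26.9% and 27.5% of all genes. In TE 2 of 30 passed, both lower, against 4.48% lower and 4.88% higher among all genes. Whether these 2 TE calls hold with a lysate left out or another method was not examined. NCBP1, the larger subunit of the nuclear cap-binding complex, fell in TE by 0.63 ± 0.23 (adjusted p = 0.11), with mRNA of 67.2, 66.9 and 71.6 CPM in Pro and 50.2, 52.5 and 49.9 CPM in Sen. THOC2, the scaffold of the THO mRNA export complex, fell in TE by 0.82 ± 0.27 (adjusted p = 0.073), with mRNA of 37.2, 41.3 and 41.5 CPM against 30.6, 31.5 and 28.7 CPM.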

How the data were processed

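Ribo-seq and poly(A) RNA-seq were made from 6 lysates of IMR90, and each RNA-seq library came from a part of the lysate used for Ribo-seq. The deposited tables give, per gene symbol, reads the authors assigned to 5′ UTR, CDS, 3′ UTR and non-coding classes. Their unit was read as an expected count, deposited without scaling, because some values were simple fractions. The submitters' processing notes list cutadapt 1.18, Bowtie 1.0.1, SAMtools 1.8 and DESeq2 1.22.2. The genome build, strand rule and handling of multiply placed reads for these tables are not given in the sources used here. The sources used here describe no molecular identifiers, and in these read numbers copies of 1 molecule could not be told from separate molecules. The intervals treat each read as independent and may be too narrow. RNA-seq tables of proliferating cells carry a tag like the solvent name DMSO, absent from the labels.

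The planned tests assumed plain counts, so values were summed over regions and rounded. mRNA was the RNA-seq sum of CDS and both UTRs, and RPF was the CDS reads of Ribo-seq. edgeR 4.0.16 (R 4.3.3) was used with filterByExpr, TMM within library type, the quasi-likelihood test and Benjamini-Hochberg adjustment over all genes tested, with the threshold of 0.15 taken from the study. TE was the interaction of library type and state with the lysate as a block, because both libraries of a lysate share it by protocol. Their deviations from group means correlated by only -0.05 to 0.06 across genes. Per-lysate TE used 0.5 added to each count. Pro and Sen samples of the same number were not treated as pairs (see the closing section). Replicates were grown independently, per the protocol. Counts were also simulated with a fixed dispersion and no lysate effect. All changed genes had the same size of change, up or down, and were picked above a floor of mean reads in both library types. On these simulated data 99.5% of 200 changed genes were recovered in mRNA (12733 genes tested). The share of false calls is not reported here. The recovered share was 77% of 196 in RPF (7515 genes) and 54.1% of 196 in TE (7461 genes). Recovery at the members' own change sizes and read numbers was not tested.

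The members, gene lists and naming rule were chosen with earlier results of these data known. Named genes were the Ran cycle, the 3 lowest and 2 highest mRNA changes in each of 5 families, members past the TE threshold, members opposed between layers and members not tested. Gene models were GENCODE v44 lifted to GRCh37, and promoters RefSeq GRCh38.p14. The alternatives used DESeq2 1.42.0, limma 3.58.1, other scaling, other filters and left-out lysates. The removal of SNORA77B reads and 1 further scaling were added after the data were seen.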

Additional observations from a re-analysis of the deposited data

Results flagged for a closer look

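SNORA77B, a read class outside the planned comparisons, held 776 reads over the 3 senescent Ribo-seq libraries and 28.5 over the 3 proliferating ones. By library there were 338, 76.2 and 362 reads in Sen 1 to 3 and 9.17, 9.67 and 9.67 in Pro 1 to 3. Scaled to all assigned reads of a library (RPM), the levels were 157, 209 and 339 in Sen and 57.9, 11.9 and 5 in Pro, with means of 235 and 24.9. It stood out as signal in data that the comparisons did not use, above the level in proliferating cells. Its fractional read numbers matched those of the RANBP1 CDS, as described above, but whether every read was counted for both genes is not known. The share of all assigned reads that fell in non-coding classes also differed between the libraries, from 4.75% to 52.5% in Pro and from 11.4% to 45.2% in Sen. Its part in the SNORA77B reads was not tested. Other small RNAs nested in members did not share the SNORA77B pattern in unscaled Ribo-seq reads. SNORA73A had 723.5, 1029.5 and 1063 reads in Pro 1 to 3 and 410.5, 34 and 37.2 in Sen 1 to 3. SNORA73B had 452.5, 522 and 681 against 385, 39.5 and 47.7. SNORA23 had 105, 108 and 220 against 279, 5 and 18, and SCARNA7 had 2, 3 and 5 against 30, 1 and 3.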

How the results depend on the processing

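RANBP1 reversed when SNORA77B reads were taken out, to -1.13 in RPF and -0.47 in TE. After that removal the TE change passed the threshold with RLE factors (-0.50), on library totals (-0.50), without the Pro 1 and Sen 2 lysates (-0.52), without the lysate block (-0.46) and without Pro 1, and it ranged from -0.56 to -0.39 over the left-out lysates. Members past the threshold in RPF numbered 45 in the main fit, 14 with DESeq2, 9 of 9 tested with at least 10 counts in every library, 23 with the replicate block and 27 to 45 with 1 lysate left out. In TE they numbered 8, 4 with at least 1 read, 4 of 9 tested with at least 10 counts in every library, 1 with DESeq2, 1 with limma-voom, 14 without the lysate block, 13 without the Pro 1 and Sen 2 lysates, 4 at a threshold of 0.05 and 2 to 13 with 1 lysate left out. The mRNA count stayed within 43 to 48. Deviations of Pro and Sen samples of the same number correlated by -0.20 to 0.21 in mRNA and 0.01 to 0.03 in RPF. The 2 libraries of a lysate, linked by protocol, correlated by only -0.05 to 0.06. Low values therefore cannot show whether samples of the same number were paired. The replicate block left the mRNA count at 44 but moved the RPF count from 45 to 23. Library totals shifted the median of all genes by -0.11 in mRNA and -0.13 in RPF.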
